A study of Mus musculus with 18 samples.

Results

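The SNARE proteins, their regulators and the synaptotagmins are the machinery that fuses a vesicle with its target membrane, and they were followed here across sorted cells of the mouse trachea. The members were all symbols of the deposited count table that begin with Syt (synaptotagmins), Stx (syntaxins), Vamp, Snap (SNAP23, SNAP25, SNAP29 and SNAP47) or Stxbp (syntaxin-binding proteins) and end in a number with at most 1 letter. This gave 50 of 26327 symbols: 17 synaptotagmins, 15 syntaxins, 7 VAMPs, 4 SNAP genes and 7 syntaxin-binding proteins. RNA was sequenced from 7 libraries of brush cells, 7 libraries of EpCAM+ epithelial cells and 4 libraries of CD45+ hematopoietic cells. Tracheas of naive mice were digested with dispase and then papain, and dead cells were removed with propidium iodide. Brush cells were sorted as CD45- EpCAM+ cells that were positive for eGFP, EpCAM+ cells as CD45- EpCAM+ cells, and CD45+ cells by CD45. All 3 groups came from mice of the ChAT-eGFP transgenic line, so the controls carry the transgene too. Brush cells are thus defined by a reporter on a transgene for Chat, the enzyme that makes acetylcholine. The labels do not say whether the libraries came from separate animals, and the spread behind each p-value may therefore be technical.

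Brush cells, the tuft cells of the airway, are solitary chemosensory epithelial cells with apical microvilli that release acetylcholine, lipid mediators and the cytokine Il25. In vesicle fusion, a VAMP on the vesicle pairs with a syntaxin and a SNAP25 family protein on the target membrane, and the resulting bundle pulls both membranes together. Sec1/Munc18 proteins, several of which are called syntaxin-binding proteins, hold syntaxins and guide that assembly. Synaptotagmins are vesicle proteins with a pair of C2 domains, some of which bind calcium and trigger release. Neurons use Stx1a, Snap25, Vamp1 or Vamp2 and synaptotagmins, among others, for synaptic release, whereas epithelia and leukocytes commonly use Stx3, Stx4a, Stx11, Snap23, Vamp3, Vamp8, Stxbp2 and Stxbp3.

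The libraries held 838328 to 6031711 counts in brush cells, 2442601 to 6087184 in EpCAM+ cells and 371652 to 7438791 in CD45+ cells. The share of all counts that fell on the 50 members was 0.0678% to 0.163% for brush, 0.0945% to 0.169% for EpCAM+ and 0.0751% to 0.155% for CD45+ libraries. The group labels were set beside marker lists chosen with earlier results of these data known. Chat, on whose transgene the reporter sits, and Ptprc are among these markers, so the sorting itself set part of the outcome. All 12 brush markers were higher in brush than in EpCAM+ cells and 11 of 12 were higher than in CD45+ cells, with summed levels of 10540 to 13800 CPM (counts scaled to a common library total) in brush, 10.4 to 41.3 CPM in EpCAM+ and 456 to 848 CPM in CD45+ libraries. Basal cell markers summed to 34.4 to 167 CPM in brush and 2975 to 5558 CPM in EpCAM+ libraries. Pan-leukocyte markers summed to 756 to 1444 CPM in brush, 10.8 to 40.1 CPM in EpCAM+ and 6588 to 7343 CPM in CD45+ libraries. Of the brush sum, 701 to 1402 CPM came from Ptpn6 alone. Of the 8 pan-leukocyte markers, 6 were higher in brush than in EpCAM+ cells, and 7 were lower in brush than in CD45+ cells. Ptprc, which encodes CD45, had 10.2 to 31.4 CPM in brush, 0 to 0.27 CPM in EpCAM+ and 635 to 1491 CPM in CD45+ libraries. In brush libraries Laptm5 had 0.811 to 9.43 CPM and Cd37 had 0.544 to 15.1 CPM. The brush means of Coro1a, Cd53 and Cd52 were 0.799, 0.596 and 0.034 CPM. Brush library 4, EpCAM+ library 5 and CD45+ library 1 were taken as standing apart from the others of their groups. They were picked after the data were seen and by no set measure. Brush library 4 and CD45+ library 1 were also the shallowest of their groups. Of the members, 36 passed the filter on low counts and were tested, and 14 were not: 13 synaptotagmins and Vamp7. Of the 36, 7 would not have passed without 1 group, among them Snap25 and Syt5 without brush, Stx2 without CD45+, Stxbp6 and Syt8 without EpCAM+, and Stxbp5l without brush or EpCAM+ libraries. The counts of called members therefore describe those tested and no more.

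Between brush and EpCAM+ cells the machinery differed by member. Differences ran in both directions within families: Syt5 was higher and Syt8 lower in brush cells, Stx19 was higher and Stx2 lower, and Vamp1, Vamp2 and Vamp4 were higher while Vamp3, Vamp5 and Vamp8 were lower. Of the 36 members tested, 10 were higher in brush cells, 6 were lower and 20 did not pass an adjusted p of 0.05 (edgeR quasi-likelihood test, Benjamini-Hochberg over 13418 genes). Over all 13418 genes tested, 40.3% were called, 18.3% as higher and 22% as lower, against 27.8% of the members as higher and 16.7% as lower. The median log2 fold change was 0.15 over the members and -0.06 over all genes tested. Against CD45+ cells, 7 members were higher in brush cells, 7 were lower and 22 did not pass, where 45.8% of all genes were called, 23.4% as higher and 22.4% as lower. The median was -0.09 over the members and 0.05 over all genes. Every brush library was above every EpCAM+ library for 9.54% of all genes and below for 10.7%, and the same against CD45+ libraries held for 16.8% and 13.8%. Both brush contrasts use the same brush libraries. In them Stx19 and Syt5 were higher both times, and Stx2, Stxbp6 and Vamp3 were lower both times. In bulk RNA, fewer cells of a type that express a gene and less RNA of it per cell cannot be told apart. Members outside the naming rule that are given values below were chosen after these were seen: Snap25, Snap29, Stx2, Stx6, Stx16, Stx17, Stxbp4, Vamp1, Vamp2 and Vamp3 among them. The plot of fold changes sets out the tested members by name.

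**Figure D1:**
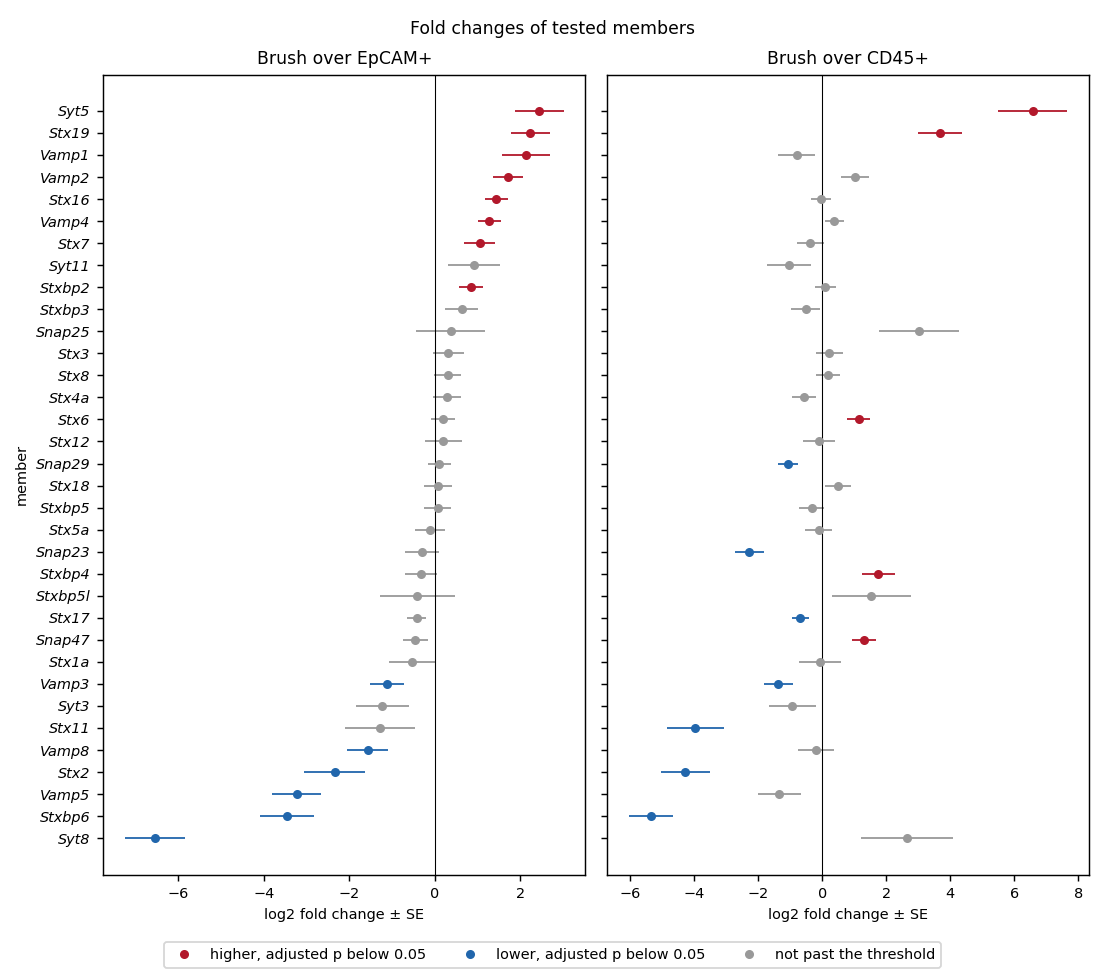
Log2 fold changes (points, bars ± SE) of tested members in brush over EpCAM+ cells (left) and brush over CD45+ cells (right), ordered by the left panel; red is higher, blue lower and grey not past an adjusted p of 0.05. Syt5 and Stx19 are red in both panels, and the fitted value of Syt8 against CD45+ cells rests on a group with 0 counts.

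Promoter sequences of the members were read from RefSeq (GRCm38.p6), where 38 of the 50 members had an entry. The 250 bases before the start held a median of 16 CG dinucleotides over these 38, against 6 over all 32851 promoters of that table, and 4 of the 38 (10.5%) held 4 or fewer, against 44.4% of all. Those 4 were Syt8 with 1, Stx19 and Vamp8 with 3 each and Stx7 with 4. The limit of 4 was set after the values were seen. Each member gave 1 start, whereas all promoters means every start in that table, with several for some genes and no limit on gene type or expression. The shares of members and of all promoters here and below are thus over unlike sets. The sequences of Stx19 (chr16:62814426-62814675, plus strand), Syt8 (chr7:142434600-142434849, plus strand) and Stx7 (chr10:24149039-24149288, plus strand) are shown because they are CG-poor members of opposite direction. Vamp4 (chr1:162570265-162570514, plus strand), with 18 CG, is shown as a member near the median that also differed. Each runs 5′ to 3′ and CG dinucleotides are in capitals.
Stx19: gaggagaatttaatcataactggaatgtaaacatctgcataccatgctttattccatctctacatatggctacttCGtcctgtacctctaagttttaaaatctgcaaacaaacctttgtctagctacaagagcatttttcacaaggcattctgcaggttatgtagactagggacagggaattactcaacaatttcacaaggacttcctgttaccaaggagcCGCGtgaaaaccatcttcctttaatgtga
Syt8: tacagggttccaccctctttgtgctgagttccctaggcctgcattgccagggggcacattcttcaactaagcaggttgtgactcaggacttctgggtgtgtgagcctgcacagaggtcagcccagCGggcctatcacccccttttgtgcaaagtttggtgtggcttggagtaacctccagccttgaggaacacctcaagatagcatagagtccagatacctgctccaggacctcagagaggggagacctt
Stx7: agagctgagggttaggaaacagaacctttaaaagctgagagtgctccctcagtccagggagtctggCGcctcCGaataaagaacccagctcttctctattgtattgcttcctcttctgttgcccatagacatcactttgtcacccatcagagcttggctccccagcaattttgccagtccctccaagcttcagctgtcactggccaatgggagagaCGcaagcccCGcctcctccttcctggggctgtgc
Vamp4: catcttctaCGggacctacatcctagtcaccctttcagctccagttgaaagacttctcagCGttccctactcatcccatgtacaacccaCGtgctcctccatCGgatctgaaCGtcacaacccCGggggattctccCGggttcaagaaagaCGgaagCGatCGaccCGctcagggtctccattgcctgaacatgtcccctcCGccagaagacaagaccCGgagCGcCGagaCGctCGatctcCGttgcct
The G and C content was 39.2% for Stx19, 54.8% for Syt8, 54% for Stx7 and 57.2% for Vamp4, against a median of 62.2% over the 38 members. On either strand, the octamer ATGCAAAT bound by POU factors was in 1 of the 38, Stx6, against 1.60% of all promoters. The letters TATAAA were in 1 of the 38, Stx3, against 12.4% of all. The GC box letters GGGCGG were in 26 of the 38, against 32.7% of all, and CCAAT in 12 of the 38, against 33.8%. A match describes these letters in this window and no more.

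The synaptotagmin with the largest share of its family differed between the sorted groups. On the TPM scale, which is per length, Syt5 made up a median of 55.3% of the family's summed TPM in brush libraries, 4.96% in EpCAM+ and 0% in CD45+ libraries. Syt8 took 0% in brush, 71.9% in EpCAM+ and 0% in CD45+ libraries, and Syt11 took 11.7%, 3.7% and 75.6% in the same order. The family as a whole was low: its summed TPM had medians of 26.4 in brush, 30.4 in EpCAM+ and 6.54 in CD45+ libraries, against 373, 485 and 305 for the VAMPs. The plot of family make-up shows these shares.

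**Figure D2:**
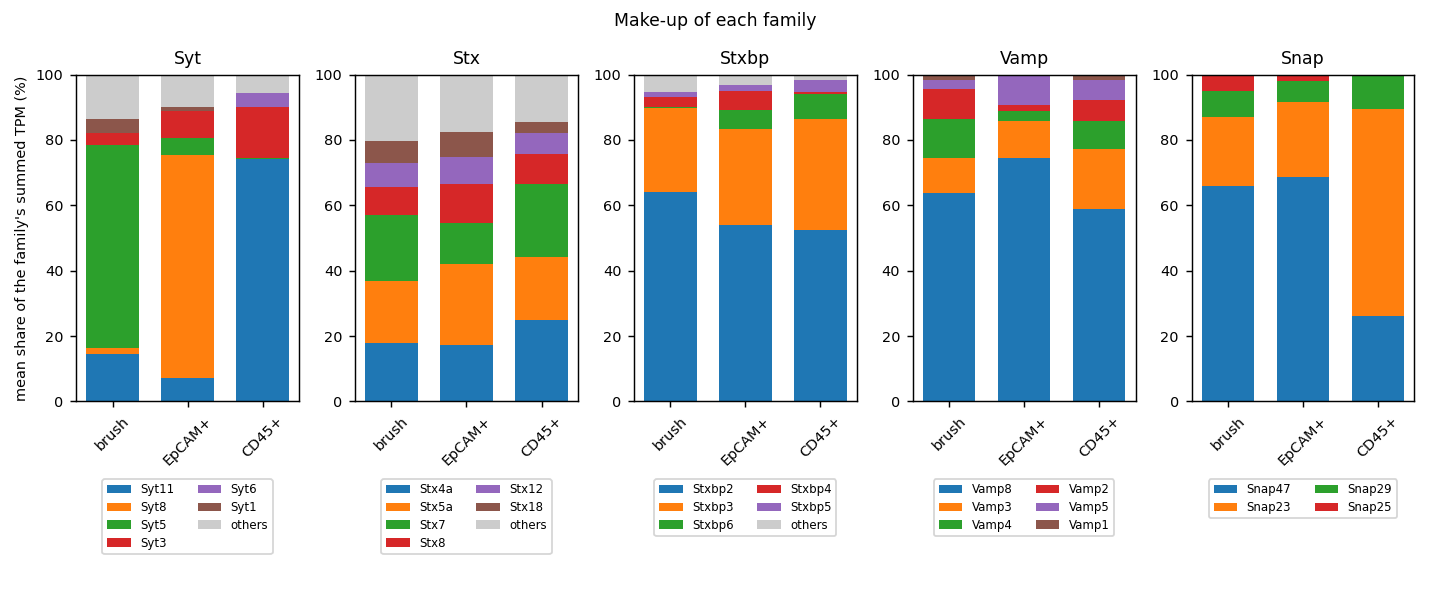
Mean share (%, stacked bars) of each member in the summed TPM of its family in brush, EpCAM+ and CD45+ libraries, for the 5 families. The synaptotagmin bar is mostly Syt5 in brush, Syt8 in EpCAM+ and Syt11 in CD45+ libraries, and the SNAP bar is mostly Snap47 in brush and EpCAM+ libraries and Snap23 in CD45+ libraries.

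Syt5, a calcium-binding synaptotagmin known from dense-core vesicles, had 5.12 to 26.4 CPM in brush libraries (median 16.1), 0 to 5.66 CPM in EpCAM+ libraries (median 2.59) and 0, 0, 0 and 0.508 CPM in CD45+ libraries. Brush libraries were above every CD45+ library and overlapped the EpCAM+ range at its top. Syt5 averaged 15.2 ± 6.56 CPM in brush and 2.61 ± 2.19 CPM in EpCAM+ cells (SD, n = 7 each). Its fold change was 2.44 ± 0.57 on the log2 scale (± SE here and below, adjusted p = 0.00138, edgeR). The CD45+ group held 2 Syt5 counts in all against 381 in brush, a depth-scaled ratio of 112 with a 95% counting interval of 30.8 to 930 (adjusted p = 2.46e-05, edgeR). Both of those CD45+ counts came from library 4, and the fitted log2 fold change of 6.58 was 8.99 without that library, 5.80 without CD45+ library 3 and 7.24 with the RSEM counts.

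Syt8, a synaptotagmin outside the calcium-sensor group, was the member with the largest fitted decrease in brush over EpCAM+ cells. It had 0 to 1.63 CPM in brush libraries (median 0), 12.6 to 20.8 CPM in EpCAM+ libraries (median 15.6) and 0 CPM in all 4 CD45+ libraries. No brush library reached the lowest EpCAM+ library. The 4 Syt8 counts in brush cells stood against 539 in EpCAM+ cells, a depth-scaled ratio of 0.00763 with a counting interval of 0.00207 to 0.0196. The log2 fold change was -6.55 ± 0.69 (adjusted p = 2.1e-07, edgeR), and it was -8.05 without brush library 5, which held the 1.63 CPM. Summed markers of other epithelial cells were also lower in brush libraries. Club and goblet cell markers summed to 368 to 3329 CPM in brush and 32889 to 152874 CPM in EpCAM+ libraries, with no marker of the 7 at 0 in any brush library. Bpifa1 alone had 156 to 2852 CPM in brush and 21353 to 95162 CPM in EpCAM+ libraries. The 6 tested were lower in brush cells, and Muc5ac, which was not tested, had 0.813 CPM in brush library 3 and 0 CPM in EpCAM+ library 3. Ciliated cell markers summed to 105 to 262 CPM in brush and 1027 to 1673 CPM in EpCAM+ libraries. In brush libraries 71.1 to 247 CPM of the ciliated sum came from Tppp3, which also had 160 to 596 CPM in CD45+ libraries. Among the EpCAM+ libraries, library 5 had the highest club and goblet sum with the lowest Syt8, 12.6 CPM, and library 4 the lowest sum with 20.1 CPM of Syt8. The part of these cells in the Syt8 difference was not tested.

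Syt11, which does not bind calcium and is known to restrain vesicle traffic and phagocytosis, had 2.35 to 32 CPM in brush libraries (median 5.69), 0.943 to 12.3 CPM in EpCAM+ libraries (median 1.49) and 25.9, 14.2, 12.5 and 14.2 CPM in CD45+ libraries. The brush range overlapped both other groups, and neither brush contrast passed the test with all libraries. Without EpCAM+ library 2 the log2 fold change over EpCAM+ cells was 1.57 (adjusted p = 0.0396, edgeR), and without brush library 4 that over CD45+ cells was -1.57 (adjusted p = 0.0436, edgeR). Every EpCAM+ library was below every CD45+ library, with a log2 fold change of -1.97 ± 0.67 (adjusted p = 0.0221, edgeR) that was -2.61 without EpCAM+ library 2 and no longer passed without CD45+ library 1. Syt3, a calcium-binding member, averaged 1.91 ± 1.38 CPM in brush, 4.52 ± 2.14 CPM in EpCAM+ and 3.66 ± 3.58 CPM in CD45+ cells and passed in no contrast.

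The other 13 synaptotagmins were under the filter and untested. Among them Syt7, a calcium sensor of lysosome and granule release, had 81 counts in brush, 17 in EpCAM+ and 2 in CD45+ cells, with 0.363 to 9.6 CPM across brush libraries and at most 1.27 CPM in EpCAM+ libraries. Syt1, the sensor of fast synaptic release, had 42, 49 and 1 counts in brush, EpCAM+ and CD45+ cells. Both were named after their values were seen. No untested member exceeded 100 counts over all 18 libraries, and Vamp7 was listed at 0 in every one. Vamp7 also had no match among the TPM values or the gene positions used, so its zeros cannot be read as absence of its RNA.

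Among the syntaxins of the plasma membrane, Stx19 was higher and Stx2 lower in brush than in EpCAM+ cells. Stx4a, a basolateral syntaxin of epithelia, averaged 31.7 ± 17 CPM in brush, 24.9 ± 8.99 CPM in EpCAM+ and 48.6 ± 32.9 CPM in CD45+ cells and passed in no contrast. Stx1a, a neuronal syntaxin, averaged 1.85 ± 1.31 CPM in brush, 2.98 ± 1.42 CPM in EpCAM+ and 1.76 ± 1.25 CPM in CD45+ cells and also passed in none.

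Stx19, a syntaxin without a membrane-spanning segment that is anchored by lipid, had 24.5 to 60.3 CPM in brush libraries (median 30.5), 3.1 to 11.3 CPM in EpCAM+ libraries (median 8.09) and 8.62, 1.99, 0.11 and 5.33 CPM in CD45+ libraries. Every brush library was above every library of both other groups. It averaged 36.3 ± 14 CPM in brush and 7.57 ± 3.67 CPM in EpCAM+ cells, a log2 fold change of 2.24 ± 0.47 (adjusted p = 0.000438, edgeR), and the change against CD45+ cells was 3.69 ± 0.69 (adjusted p = 0.000111, edgeR). The change over CD45+ cells ran from 3.07 without CD45+ library 3 to 4.62 without CD45+ library 4. Stx19 lies inside Arl13b, which is on the opposite strand, but their annotated exons share 0 bases. Arl13b averaged 31.9 ± 12 CPM in brush, 57 ± 40.4 CPM in EpCAM+ and 24.8 ± 5.84 CPM in CD45+ cells, and reads of the pair cannot be assigned by strand here. Exons of Stx18, Snap47 and Snap29 share up to 908, 307 and 60 bases with those of a gene on the opposite strand.

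Stx11, a lipid-anchored syntaxin of cytotoxic granule release, had 0 to 4.35 CPM in brush libraries (median 0.405), 0 to 9.22 CPM in EpCAM+ libraries (median 4.83) and 0, 35.1, 28.5 and 24.9 CPM in CD45+ libraries. The first CD45+ library, at 0, was the shallowest, and the other 3 were above every brush and EpCAM+ library. In brush over CD45+ cells, the log2 fold change was -3.97 ± 0.89 (adjusted p = 0.000765, edgeR) and -4.63 without brush library 1. Stx2, also called epimorphin, was low in brush cells: 0 to 0.811 CPM in brush, 0 to 2.34 CPM in EpCAM+ and 2.87, 8.97, 4.71 and 6.1 CPM in CD45+ libraries. The brush group held 8 Stx2 counts, against 48 in EpCAM+ and 104 in CD45+ cells. The log2 fold changes were -2.35 ± 0.71 over EpCAM+ cells (adjusted p = 0.0107, edgeR) and -4.29 ± 0.76 over CD45+ cells (adjusted p = 5.79e-05, edgeR). Without brush library 2 they were -3 and -4.89, and the first no longer passed with the RSEM counts (adjusted p = 0.0717). Stx3, the apical syntaxin of epithelia, averaged 32.5 ± 7.09 CPM in brush, 26 ± 9.35 CPM in EpCAM+ and 25.7 ± 18.9 CPM in CD45+ cells and passed in no contrast.

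**Figure D3:**
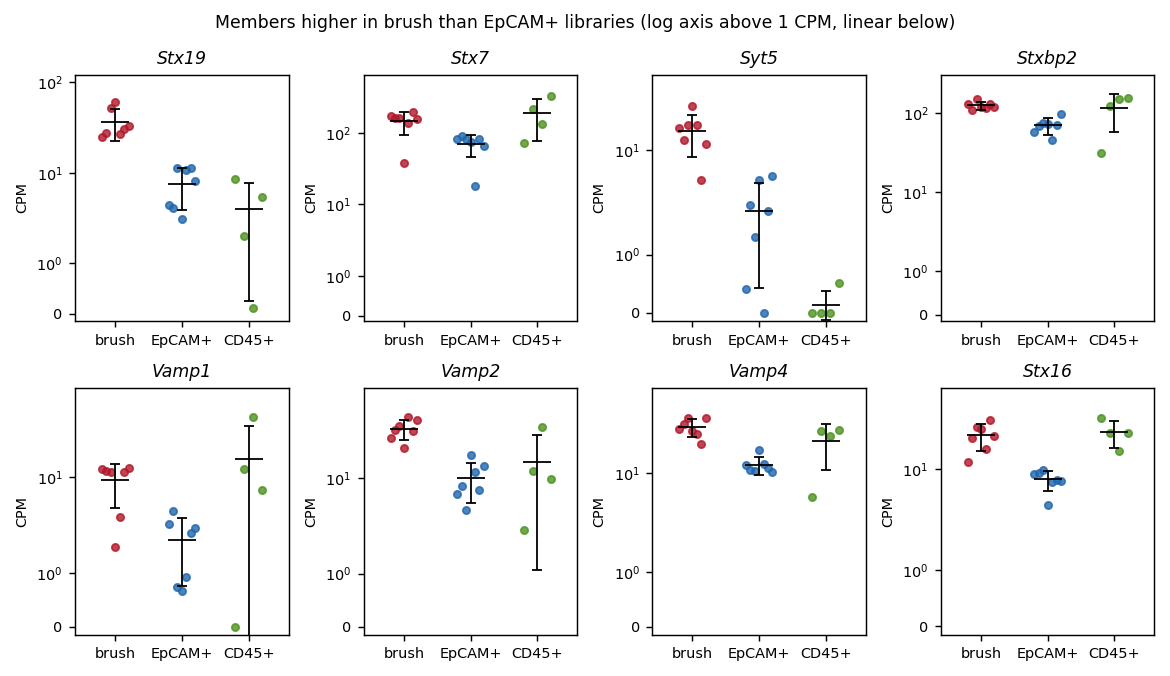
CPM (log axis above 1, linear below) of 8 members in every library (points), with means and SD (black; error bars that pass below the axis are not drawn further), in brush, EpCAM+ and CD45+ cells. All brush points lie above all EpCAM+ points for Stx19, Stxbp2, Vamp2, Vamp4 and Stx16, and CD45+ points reach the brush range for Stx7, Stxbp2, Vamp1, Vamp2, Vamp4 and Stx16.

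Of the 8 syntaxins of endosomes, Golgi and endoplasmic reticulum, 2 were higher in brush than in EpCAM+ cells, none was lower and 6 did not pass, where 18.3% of all genes were higher and 22% lower. Stx7, of late endosomes, had 37.7 to 195 CPM in brush libraries (median 161), 18.2 to 89.5 CPM in EpCAM+ libraries (median 82.2) and 71.8, 214, 136 and 329 CPM in CD45+ libraries. The lowest brush library, number 4, lay inside the EpCAM+ range, and the other brush libraries were above every EpCAM+ library. Over EpCAM+ cells, the log2 fold change was 1.05 ± 0.37 (adjusted p = 0.0257, edgeR). Stx16, of the trans-Golgi network, had 11.6 to 30.5 CPM in brush libraries (median 21.1), 4.45 to 9.84 CPM in EpCAM+ libraries (median 7.78) and 31.6, 22.4, 15.1 and 22.6 CPM in CD45+ libraries. All brush libraries and all CD45+ libraries were above all EpCAM+ libraries, and the log2 fold change in brush over EpCAM+ cells was 1.44 ± 0.27 (adjusted p = 0.000162, edgeR).

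Stx5a, which serves transport from endoplasmic reticulum to Golgi, averaged 90 ± 40.1 TPM in brush, 67.5 ± 29.7 TPM in EpCAM+ and 64.2 ± 37.5 TPM in CD45+ cells, and Stx7 averaged 96.4 ± 45.9 TPM in brush, 34.9 ± 16.6 TPM in EpCAM+ and 74.6 ± 42.7 TPM in CD45+ cells. These were the syntaxins with the highest brush means. In CPM, Stx5a had 32 to 106 CPM in brush libraries (median 81.1), 35.2 to 115 CPM in EpCAM+ libraries (median 88.7) and 11.5, 120, 98.1 and 120 CPM in CD45+ libraries, with log2 fold changes of -0.12 ± 0.35 and -0.12 ± 0.41 in brush over EpCAM+ and over CD45+ cells. Its ranges overlapped in all 3 groups. Stx6, of the trans-Golgi network and endosomes, was higher in brush than in CD45+ cells, with 46.2 ± 11.7 CPM against 22.7 ± 11.9 CPM and a log2 fold change of 1.14 ± 0.36 (adjusted p = 0.0112, edgeR) that no longer passed without CD45+ library 4. Stx17, of autophagosomes, was lower in brush than in CD45+ cells, with 17.4 ± 4.02 CPM against 27.6 ± 2.3 CPM and a log2 fold change of -0.69 ± 0.26 (adjusted p = 0.0357, edgeR), and it no longer passed in 10 of the 25 alternative settings. Stx8, Stx12 and Stx18 passed in no contrast with all libraries, and Stx8 passed over EpCAM+ cells without EpCAM+ library 5, with a log2 fold change of 0.70 (adjusted p = 0.0211, edgeR).

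The 6 VAMPs that were tested passed between brush and EpCAM+ cells, 3 in each direction, where 40.3% of all genes did, and 2 of them, Vamp3 and Vamp8, missed the threshold in some alternative settings. Vamp1 and Vamp2 are the synaptobrevins of synaptic and endocrine vesicles. Vamp2 had 20.7 to 43.5 CPM in brush libraries (median 31.6), 4.64 to 17.5 CPM in EpCAM+ libraries (median 8.29) and 2.87, 11.7, 33.8 and 9.65 CPM in CD45+ libraries. No EpCAM+ library reached the brush range, whereas 1 CD45+ library did. For Vamp2 the log2 fold change was 1.71 ± 0.36 over EpCAM+ cells (adjusted p = 0.000443, edgeR) and 1.02 ± 0.43 over CD45+ cells (adjusted p = 0.0553, edgeR), which did not pass. The CD45+ comparison passed in 6 of the 25 alternative settings, at 1.10 with DESeq2 (adjusted p = 0.026) and 1.85 without CD45+ library 3 (adjusted p = 0.00179), the library with 33.8 CPM. Vamp1 had 1.89 to 12.4 CPM in brush libraries (median 11.3), 0.674 to 4.46 CPM in EpCAM+ libraries (median 2.59) and 0, 12, 41.8 and 7.37 CPM in CD45+ libraries. Its brush and EpCAM+ ranges overlapped at the bottom of the brush range, and the log2 fold change was 2.14 ± 0.56 (adjusted p = 0.00379, edgeR).

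Vamp4, which cycles between endosomes and the trans-Golgi network, had 19.6 to 36.5 CPM in brush libraries (median 28.1), 10.2 to 17.1 CPM in EpCAM+ libraries (median 11.2) and 5.75, 26.9, 23.8 and 27.2 CPM in CD45+ libraries. Every brush library was above every EpCAM+ library, and 3 of the 4 CD45+ libraries were inside the brush range. Over EpCAM+ cells, the log2 fold change was 1.27 ± 0.26 (adjusted p = 0.000409, edgeR). On the TPM scale Vamp4 made a median of 12.4% of the VAMP sum in brush, 3.17% in EpCAM+ and 10% in CD45+ libraries, and Vamp2 made 9.31%, 1.41% and 4.04% in the same order.

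Vamp8, the endobrevin of late endosomes that also serves mucin and granule release, was the VAMP with the highest TPM in every group, at 239 ± 37 in brush, 441 ± 230 in EpCAM+ and 181 ± 27.4 in CD45+ cells. It had 71.7 to 294 CPM in brush libraries (median 92.1), 160 to 1381 CPM in EpCAM+ libraries (median 181) and 250, 97.7, 94.1 and 130 CPM in CD45+ libraries. The highest value of each group came from brush library 4, EpCAM+ library 5 and CD45+ library 1, and the brush and EpCAM+ ranges overlapped only through brush library 4. The log2 fold change over EpCAM+ cells was -1.58 ± 0.49 (adjusted p = 0.0121, edgeR). Without EpCAM+ library 5 it was -0.69 (adjusted p = 0.0877) and with DESeq2 it was -0.65 (adjusted p = 0.115). The summed club and goblet cell markers were highest in that library, at 152874 CPM against 32889 to 106285 CPM in the other EpCAM+ libraries, and their part in the Vamp8 difference was not tested.

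Vamp5, known as the myobrevin of muscle, lies next to Vamp8 on chromosome 6 with 4754 bases between them, and both were lower in brush than in EpCAM+ cells. Vamp5 had 1.63 to 7.54 CPM in brush libraries (median 3.04), 9.35 to 99.6 CPM in EpCAM+ libraries (median 16.2) and 23, 3.74, 8.76 and 3.81 CPM in CD45+ libraries. Every brush library was below every EpCAM+ library. The log2 fold change was -3.24 ± 0.57 (adjusted p = 6.79e-05, edgeR), or -2.46 without EpCAM+ library 5. Vamp3, the cellubrevin of recycling endosomes, had 9.43 to 42.7 CPM in brush, 19.7 to 90.8 CPM in EpCAM+ and 8.62, 85, 60 and 145 CPM in CD45+ libraries, with log2 fold changes of -1.12 ± 0.39 over EpCAM+ (adjusted p = 0.0257, edgeR) and -1.38 ± 0.44 over CD45+ cells (adjusted p = 0.0136, edgeR). The ranges overlapped in both contrasts. The first change no longer passed without EpCAM+ library 6 (adjusted p = 0.0527), and the second no longer passed without CD45+ library 4.

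**Figure D4:**
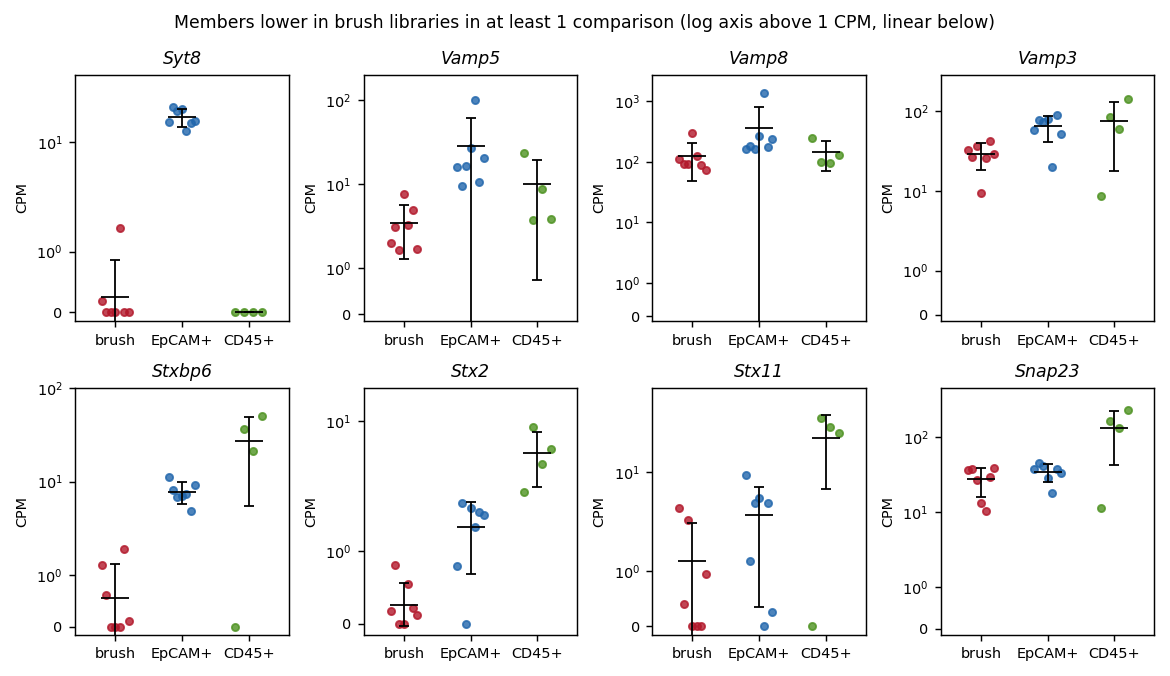
CPM (log axis above 1, linear below) in every library (points), with means and SD (black), of 8 members that were lower in brush cells in at least 1 comparison. All brush points lie below all EpCAM+ points for Syt8, Vamp5 and Stxbp6, and the highest Vamp8 and Vamp5 points are EpCAM+ library 5.

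No SNAP25 family gene passed the test between brush and EpCAM+ cells. Snap47, a family member found on intracellular membranes, had 20.7 to 85.1 CPM in brush libraries (median 58.2), 44.1 to 133 CPM in EpCAM+ libraries (median 87.6) and 8.62, 26.2, 28 and 29 CPM in CD45+ libraries. The 2 epithelial groups overlapped widely, and the log2 fold change of brush over CD45+ cells was 1.31 ± 0.38 (adjusted p = 0.00656, edgeR). Snap23, the widely expressed partner of exocytosis outside neurons, had 10.3 to 38.8 CPM in brush libraries (median 29.9), 17.9 to 46.1 CPM in EpCAM+ libraries (median 37.8) and 11.5, 165, 133 and 230 CPM in CD45+ libraries. Only the shallowest CD45+ library fell within the brush range. For Snap23 the log2 fold change was -0.30 ± 0.39 over EpCAM+ cells (adjusted p = 0.576, edgeR) and -2.28 ± 0.45 over CD45+ cells (adjusted p = 0.000175, edgeR). In shares of the family's TPM, Snap47 led with medians of 68.1% in brush and 68.0% in EpCAM+ libraries and had 17.0% in CD45+ libraries, where Snap23 had 71.7%. Snap29, a partner of Stx17, averaged 16.9 ± 3.94 CPM in brush and 34.5 ± 11.6 CPM in CD45+ cells, a log2 fold change of -1.07 ± 0.30 (adjusted p = 0.0055, edgeR).

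Snap25 itself, the neuronal member, was low and uneven. It had 1.01 to 13 CPM in brush libraries (median 2.62), 0 to 9.44 CPM in EpCAM+ libraries (median 1.23) and 0, 1.74, 0 and 0 CPM in CD45+ libraries. Brush library 6 and EpCAM+ libraries 2 and 7 had the high values. The log2 fold change was 0.37 ± 0.81 over EpCAM+ cells (adjusted p = 0.755, edgeR) and 3.02 ± 1.25 over CD45+ cells (adjusted p = 0.0527, edgeR), and neither passed. The CD45+ comparison passed in 11 of the 25 alternative settings, among them DESeq2 with a change of 2.94 (adjusted p = 0.0312), and was 7.19 without CD45+ library 2 (adjusted p = 0.0072), which leaves the CD45+ group at 0, and 2.34 without brush library 6 (adjusted p = 0.124). EpCAM+ libraries 2 and 7 also had the highest EpCAM+ sums of neuron and glia markers, at 27.4 and 15.6 CPM, of which Tubb3 made 20.4 and 9.17 CPM. The neuroendocrine marker Uchl1 was highest there too, at 12.1 and 5.12 CPM. The neuroendocrine sum, however, was highest in EpCAM+ libraries 4 and 6, at 1453 and 1084 CPM, where Snap25 had 0.404 and 3.17 CPM. Brush library 6 had 3.2 CPM of Tubb3 and 0.64 CPM of Uchl1, inside the range of the other brush libraries. Its neuroendocrine and neuron and glia sums, 265 and 78.5 CPM, also lay inside that range. It had the highest brush values of Nov (122 CPM), Chga (13.9 CPM), Ddc (8.96 CPM), Gfap (5.76 CPM), Elavl4 (1.92 CPM) and Nefm (0.213 CPM). It was not the highest brush library for the other markers of both lists. The part of neural or neuroendocrine cells in these Snap25 values was not tested.

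Of the syntaxin-binding proteins, Stxbp2 was higher and Stxbp6 lower in brush than in EpCAM+ cells. Stxbp2, the Munc18 protein of epithelia and leukocytes, had the highest TPM of its family in all groups, at 102 ± 23.5 in brush, 42.4 ± 13.5 in EpCAM+ and 82.5 ± 55.9 in CD45+ cells. It had 109 to 154 CPM in brush libraries (median 121), 45.7 to 99.5 CPM in EpCAM+ libraries (median 70.9) and 31.6, 125, 152 and 155 CPM in CD45+ libraries. All brush libraries were above all EpCAM+ libraries, with a log2 fold change of 0.84 ± 0.27 (adjusted p = 0.0171, edgeR). Stxbp3, a Stx4a partner, had 13.2 to 96.9 CPM in brush libraries (median 77.4), 20.1 to 61.4 CPM in EpCAM+ libraries (median 43) and 23, 117, 75.1 and 153 CPM in CD45+ libraries, and passed in neither brush contrast with all libraries. Without the 3 libraries that stood apart its log2 fold change over EpCAM+ cells was 0.69 (adjusted p = 0.0438, edgeR).

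Stxbp6, the amisyn that binds syntaxins with a VAMP-like segment but has no membrane anchor of that kind, was close to absent from brush cells. It had 0 to 1.92 CPM in brush libraries (median 0.119), 4.9 to 11.2 CPM in EpCAM+ libraries (median 7.4) and 0, 36.4, 21.2 and 50.3 CPM in CD45+ libraries. Every brush library was below every EpCAM+ library, and the one CD45+ library at 0 was the shallowest. The log2 fold changes were -3.47 ± 0.64 over EpCAM+ (adjusted p = 0.00011, edgeR), or -4.06 without brush library 6, and -5.35 ± 0.68 over CD45+ cells (adjusted p = 7.37e-07, edgeR). Stxbp4, which binds Stx4a, averaged 11.4 ± 3.87 CPM in brush, 14.7 ± 4.29 CPM in EpCAM+ and 2.7 ± 3.48 CPM in CD45+ cells. Its log2 fold change in brush over CD45+ cells was 1.75 ± 0.51 (adjusted p = 0.00642, edgeR), or 3.10 without CD45+ library 3. The tomosyns Stxbp5 and Stxbp5l, inhibitors of SNARE assembly, passed in no contrast with all libraries. Stxbp5l passed over CD45+ cells without CD45+ library 2 (adjusted p = 0.0243, edgeR), the one CD45+ library with Stxbp5l counts.

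Members that neurons use were unequal in brush cells: Vamp1, Vamp2 and Syt5 passed as higher than in EpCAM+ cells, Snap25 and Stx1a did not, and Syt1 was not tested. Markers of neurons and glia summed to 54.7 to 117 CPM in brush and 4.01 to 27.4 CPM in EpCAM+ libraries. In brush libraries 45.2 to 101 CPM of this came from Nefl alone, a neurofilament gene at 0 in all 7 EpCAM+ libraries. Neuroendocrine markers summed to 78 to 471 CPM in brush and 13.2 to 1453 CPM in EpCAM+ libraries. Among them, Calca, Resp18, Scg5, Scg2 and Nov were higher and Chga was lower in brush cells, Chgb, Uchl1 and Ddc did not pass, and Insm1, at 0 in all brush libraries and at most 0.212 CPM in EpCAM+ libraries, was not tested. The highest EpCAM+ sums, in libraries 4 and 6, were mostly Chga, at 1420 and 1034 CPM. The part of neural or neuroendocrine cells in these differences was not tested. Markers of mast cells and basophils summed to 102 to 197 CPM in brush and 25.3 to 59 CPM in EpCAM+ libraries. In brush libraries 102 to 195 CPM of this was Kit, Hdc averaged 1.76 CPM, and the other 8 of the 10, among them Cpa3, Mcpt4, Cma1 and Tpsb2, were at 0. The part of such cells was not tested.

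EpCAM+ cells differed from CD45+ cells in 17 members, 6 higher and 11 lower, where 40.5% of all genes were called, 22.5% as higher and 18.1% as lower. Higher in EpCAM+ cells were Snap47, Stx6, Stxbp4, Syt5, Syt8 and Vamp5. Lower were Snap23, Snap29, Stx2, Stx7, Stx11, Stx16, Stxbp3, Stxbp6, Syt11, Vamp1 and Vamp4. With 539 counts against 0, Syt8 was at least 103-fold higher in EpCAM+ cells, with the floor set at 3 counts over the group. Every EpCAM+ library was above every CD45+ library for 15.9% of all genes and below for 11.4%. Snap47 averaged 82.6 ± 28.6 CPM in EpCAM+ and 22.9 ± 9.62 CPM in CD45+ cells with no overlap, a log2 fold change of 1.76 ± 0.39 (adjusted p = 0.000656, edgeR). Vamp1 averaged 2.22 ± 1.47 CPM in EpCAM+ and 15.3 ± 18.4 CPM in CD45+ cells, a log2 fold change of -2.95 ± 0.62 (adjusted p = 0.000411, edgeR), or -1.76 without CD45+ library 3, which held 41.8 CPM. Against 11 lower members with all libraries, 7 members were called as lower without CD45+ library 4. Stx2, Stx6, Stx7, Stxbp3, Stxbp6, Syt11, Vamp4 and Vamp5 no longer passed in at least 1 of the 25 alternative settings.

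A wider list of 105 genes around vesicle fusion, of which 104 were in the table and 78 were tested, gave 19 higher and 10 lower in brush than in EpCAM+ cells, and 23 higher and 6 lower than in CD45+ cells. Of those tested, 24.4% were higher and 12.8% lower than in EpCAM+ cells, against 18.3% and 22% of all genes. Over CD45+ cells, 29.5% were higher and 7.69% lower, against 23.4% and 22.4% of all genes. The all-gene rates over EpCAM+ cells also apply to the parts of the list that follow. Secretory Rab proteins and their effectors had 6 of 21 higher and 5 lower than in EpCAM+ cells, and synaptic vesicle membrane proteins had 4 of 12 higher and 3 lower. Complexins and priming factors had 2 of 7 higher, SNARE disassembly factors and other SNAREs 3 of 17 higher and 1 lower, Munc18-like proteins and tethers 2 of 16 higher, and relatives of the synaptotagmins 2 of 5 higher and 1 lower.

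The changes past the threshold included some large ones. Mctp1, which carries C2 domains like a synaptotagmin but sits in the membrane of the endoplasmic reticulum, had 353 to 1341 CPM in brush libraries (median 1048), 0 to 1.91 CPM in EpCAM+ libraries and 8.62, 48.4, 15.9 and 61.5 CPM in CD45+ libraries. Its log2 fold change over EpCAM+ cells was 10.29 ± 0.67 (adjusted p = 6.65e-11, edgeR), and its relative Mctp2 averaged 136 ± 36.1 CPM in brush and 8.34 ± 3.73 CPM in EpCAM+ cells, a change of 4.04 ± 0.43. Cadps2, which primes dense-core vesicles, averaged 148 ± 30.1 CPM in brush and 6.5 ± 2.15 CPM in EpCAM+ cells, a change of 4.52 ± 0.28 (adjusted p = 3.88e-11, edgeR). For each of these genes all brush libraries were above all libraries of the other groups.

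Rab3b and Rab3a, small GTPases of secretory vesicles, averaged 87.3 ± 16.3 and 30 ± 5.36 CPM in brush against 1.34 ± 1.01 and 6.66 ± 2.69 CPM in EpCAM+ cells, with log2 fold changes of 6.01 ± 0.52 and 2.14 ± 0.31. Rims2, a Rab3 effector of the active zone, changed by 3.37 ± 0.67, the active zone scaffold Bsn by 1.82 ± 0.41, the synapsin Syn3 by 3.45 ± 0.37 and the polarity protein Llgl2, a relative of the tomosyns, by 1.85 ± 0.27. Syn3 was 2.38 with the RSEM counts. Lower in brush cells were Myof, a ferlin of membrane repair, with 3.67 ± 2.52 against 112 ± 24.9 CPM and a change of -5 ± 0.49, and the Rab27 effectors Sytl2 and Sytl1, with changes of -4.03 ± 0.57 and -1.98 ± 0.29. All of these 12 genes passed at an adjusted p of 0.00109 or less. Nsf, the ATPase that takes spent SNARE bundles apart, named after its values were seen, had 58.4 to 99.9 CPM in brush libraries, 16.7 to 37.2 CPM in EpCAM+ libraries and 57.5, 107, 105 and 107 CPM in CD45+ libraries. Its log2 fold change was 1.76 ± 0.25 over EpCAM+ (adjusted p = 5.74e-06, edgeR) and -0.24 ± 0.29 over CD45+ cells (adjusted p = 0.522, edgeR). The plot of other vesicle genes shows the 12 genes by library.

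**Figure D5:**
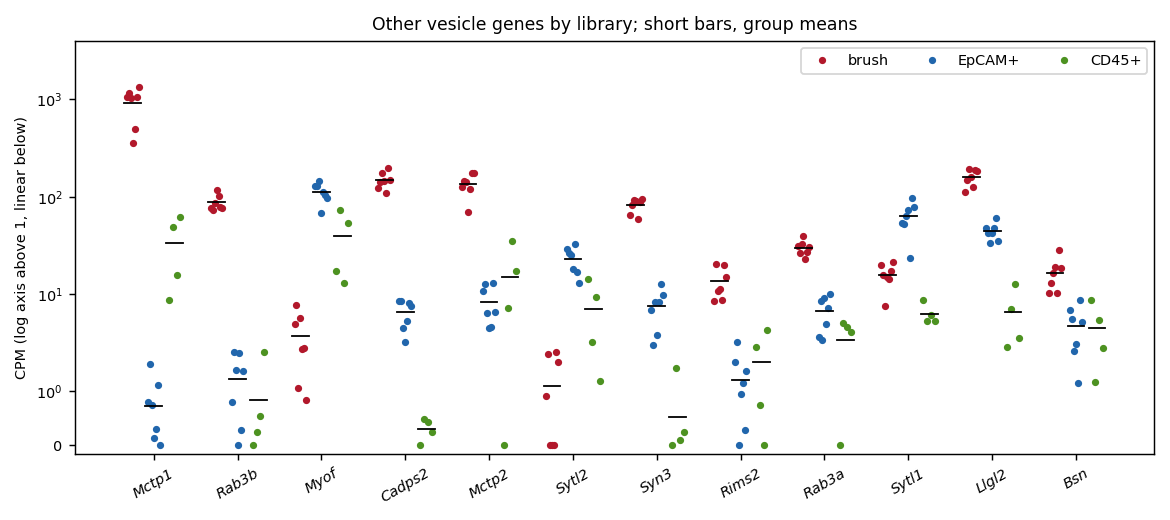
CPM (log axis above 1, linear below) of 12 other vesicle genes in every brush, EpCAM+ and CD45+ library, with short bars at group means. Mctp1 averages 926 CPM in brush and 0.722 CPM in EpCAM+ cells, and Myof, Sytl2 and Sytl1 are the genes with brush points below the EpCAM+ points.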

How the data were processed

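RNA-seq of sorted mouse tracheal cells was deposited as a table of whole-number read counts per gene symbol for all 18 libraries and as 1 table per library of RSEM estimated (expected) counts and TPM. The submitters' processing notes name RSEM 1.2.21, featureCounts, DESeq2, STAR 2.4.2a and Picard 1.1073 with build mm10, without roles; for annotation and strandedness, the setting is not given in the sources used here. The deposited count table, made by the authors without normalization, was the main input. The deposited expected counts, rounded and summed per symbol, were an alternative, and the TPM values, which the authors' RSEM tables scale to length and depth, served for levels between genes; 49 of 50 members were matched there.

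Counts were scaled by TMM and fitted over all 18 libraries with group as the only factor (edgeR 4.0.16, glmQLFit and glmQLFTest, R 4.3.3). Genes were kept with filterByExpr (2.43 CPM in at least 4 libraries), which left 13418 and removed 12909. P-values were adjusted by Benjamini-Hochberg over all genes kept and called below 0.05. SE is the absolute log2 fold change over the square root of F. The fit was also run on simulated data in which few genes changed and all genes had the same spread. The real contrasts called far larger shares of genes, so that run does not show their error rate. CPM values use TMM-scaled totals. Counting intervals (95%, exact, on summed counts) and floors of 3 counts cover counting error only.

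Named members had an adjusted p below 0.05 with an absolute log2 fold change of at least 2 in a brush contrast and a mean of at least 10 CPM in the higher group, or were among the pair of highest brush mean TPM in their family. The 12 other vesicle genes named had the largest absolute changes in brush over EpCAM+ cells among called genes with at least 10 CPM. Members and lists were chosen with earlier results of these data known. No pair of libraries of a group agreed within sampling noise (lowest chi-square per degree of freedom 6.11). Alternatives were DESeq2 1.42.0, its size factors, no filter, the compared groups alone, expected counts, a replicate block, and leaving out libraries. Positions are from GENCODE on GRCm38, promoters from RefSeq on GRCm38.p6. The authors' normalized table was not used. Some members count in the totals but are not reported here.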

Additional observations from a re-analysis of the deposited data

Results flagged for a closer look

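In 28 of 106 sets of libraries of 1 group, 1 library stood outside the range of the others by Dixon's test. Chance flags about 1 in 20 groups of normally distributed values, but the test was run on CPM without a log scale. A set with a single value above 0 is always flagged, as for Snap25, Stxbp5l and Syt5 in CD45+ cells. The 28 flags thus cannot be weighed against that rate. Many flags came from the same 3 libraries. Brush library 4 was high for Stx4a (69.8 CPM), Syt11 (32.05 CPM) and Vamp8 (294 CPM) and low for Stx5a (32.05 CPM) and Stx7 (37.7 CPM). EpCAM+ library 5 was high for Stx4a (43.2 CPM), Stx8 (87 CPM), Vamp5 (99.6 CPM) and Vamp8 (1381 CPM) and low for Stx5a (35.2 CPM) and Stx7 (18.2 CPM). CD45+ library 1 was high for Stx4a (97.7 CPM), Stx8 (48.8 CPM), Stxbp5 (23 CPM) and Syt11 (25.9 CPM) and low for Snap47 (8.62 CPM), Stx18 (0 CPM) and Vamp4 (5.75 CPM). In all 3 groups the library with the highest Stx4a was thus one of these. Brush library 4 and CD45+ library 1 held 838328 and 371652 counts, the fewest of their groups.

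The other values outside the range of their group came from single libraries and were high except for Stx17. Snap25 had 13 CPM in brush library 6 and 1.74 CPM in CD45+ library 2, the one CD45+ library with any Snap25 count. EpCAM+ library 2 was high for Snap29 (26.3 CPM) and low for Stx17 (16.1 CPM). Stxbp5 had 13.6 CPM in brush library 1. Stxbp5l had 7.62 CPM in brush library 5 and 1.99 CPM in CD45+ library 2, and Syt8 had 1.63 CPM in brush library 5. Syt5 had 0.508 CPM in CD45+ library 4, and Vamp4 had 17.1 CPM in EpCAM+ library 4.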

How the results depend on the processing

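Over 25 alternative settings, the counts of called members stayed within 1.5 times the reported ones, except that 7 members were lower in EpCAM+ than in CD45+ cells without CD45+ library 4, against 11 with all libraries; leaving out 1 library at a time gave 7 to 11. Of the 59 called values of members and other vesicle genes, none changed direction and 44 passed in every setting in which they were tested. Not all were tested in each, as Stxbp6 in brush over CD45+ cells had a value in 24 of the 25 settings. The other 15 missed the threshold in at least 1: 3 in brush over EpCAM+, 4 in brush over CD45+ and 8 in EpCAM+ over CD45+ cells. In brush over EpCAM+ cells these were Stx2 (RSEM counts), Vamp3 (replicate block, without EpCAM+ library 6) and Vamp8 (DESeq2, without EpCAM+ library 5). Values that did not pass were called in 24 instances: for Snap25 (11 settings), Vamp2 (6), Syt11, Vamp5 and Stxbp5l (1 each) over CD45+ cells, and for Stx8 (2), Stxbp3 and Syt11 (1 each) over EpCAM+ cells. Without brush library 4, EpCAM+ library 5 and CD45+ library 1, the members called higher and lower were 12 and 6 for brush over EpCAM+, 8 and 7 for brush over CD45+, and 9 and 12 for EpCAM+ over CD45+ cells. The groups share replicate numbers, but the correlation of deviations from group means was over 0.1 in only 4 of 7, 1 of 4 and 2 of 4 same-numbered pairs. It ran from -0.10 to 0.27 for brush with EpCAM+, from -0.22 to 0.12 for brush with CD45+ and from -0.21 to 0.30 for EpCAM+ with CD45+ libraries, and 2 of 7, 0 of 4 and 1 of 4 libraries correlated best with their own number. With the replicate block the members called higher and lower were 10 and 5, 8 and 5, and 4 and 8 in the same order. In brush cells, Stx17 and Vamp3 over CD45+ cells and Vamp3 over EpCAM+ cells were no longer called. In EpCAM+ over CD45+ cells, Stx6, Stxbp3, Stxbp6, Vamp4 and Vamp5 were no longer called.

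Direction changed only for values that did not pass. In brush over CD45+ cells, log2 fold changes with the other sign were 0.0050 for Stx1a with DESeq2 size factors and 0.0031 with DESeq2; 0.0034 for Stx16 with DESeq2, 0.028 with RSEM counts and 0.096 without the 3 libraries; 0.072 for Stx12 with RSEM counts and 0.20 with the block; 0.072 for Stx5a with the block; and, without the 3 libraries, -0.037 for Stx3, -0.15 for Stxbp2 and 0.025 for Stxbp5. In brush over EpCAM+ cells they were -0.013 for Snap29 and -0.045 for Stxbp5 with RSEM counts. Leaving out 1 library at a time crossed zero over EpCAM+ cells for Snap25 (-0.32 to 0.90), Stx18 (-0.017 to 0.20), Stx5a (-0.26 to 0.019) and Stxbp5 (-0.11 to 0.23). Over CD45+ cells it did so for Stx12 (-0.42 to 0.15), Stx16 (-0.20 to 0.093), Stx1a (-0.25 to 0.17), Stx3 (-0.073 to 0.54), Stx5a (-0.44 to 0.056), Stx7 (-0.62 to 0.039), Stxbp2 (-0.19 to 0.27), Syt3 (-1.31 to 0.30), Vamp1 (-1.08 to 0.36) and Vamp8 (-0.54 to 0.19). The cause was not tested. CD45+ library 1 held 371652 counts, with 34 of Stx4a but 0 of Stx3, Stx11, Stx18 and Stxbp6, which had 21.2 to 50.3 CPM in the other CD45+ libraries.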
